A study of Homo sapiens with 12 samples.

Results

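Irradiated, senescent human fibroblasts that had been treated with the CDK4/6 inhibitor palbociclib were compared with proliferating fibroblasts of the same line. The comparison used 6 of the 12 libraries of the study, 3 per group, chosen by their labels. It covered 11242 of the 16383 genes in the deposited table, those whose normalized count averaged 10 or more over the 12 libraries. All groups were of IMR90, an established fibroblast line from human lung, labelled wild type, and RNA was captured by its poly(A) tail. Proliferating cells carried the treatment label "No treatment" and had no stated harvest day. The senescent groups had received 20 Gy of ionizing radiation within 10 min and were harvested on day 11. They were given DMSO, 2 µM palbociclib or 2 µM ruxolitinib, a Janus kinase inhibitor; the inhibitors were added on days 4, 6, 8 and 10. Radiation, drug and culture time all differ between the palbociclib and proliferating groups, so their parts in a difference cannot be told apart there. Values of the DMSO group, the senescent state without inhibitor, are given beside most results. Between DMSO and proliferating cells, radiation, vehicle and culture time cannot be told apart either.

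Palbociclib inhibits the kinases CDK4 and CDK6, which, bound to D-type cyclins, phosphorylate the retinoblastoma protein RB. Unphosphorylated RB holds E2F transcription factors in a repressed state, and the related DREAM complex silences late cell cycle genes. Both are known to act downstream of p21, the product of CDKN1A, which p53 induces after DNA damage. Senescent fibroblasts are also known for loss of lamin B1 and for a secretory and interferon response.

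Both marker genes differed in the direction known for senescence. LMNB1, which encodes lamin B1 of the nuclear lamina (Entrez gene 4001, chromosome 5, 126776623 to 126837020, RefSeq on GRCh38.p14), stood at 3784, 4045 and 3905 normalized counts in the proliferating libraries and 25.5, 37.2 and 32.0 with palbociclib. The DMSO libraries lay between them at 179, 159 and 121. All 3 palbociclib libraries were below every DMSO library, and LMNB1 was 122-fold lower than in proliferating cells (log2 difference -6.92, SE 0.14, adjusted p 1.40e-15, limma). CDKN1A (Entrez gene 1026, chromosome 6, 36676463 to 36687332) was at 3165, 3523 and 3479 in proliferating, 28501, 29824 and 29125 in DMSO and 14000.1, 15903 and 14433 in palbociclib libraries. It was 4.36-fold higher with palbociclib than in proliferating cells (2.12, SE 0.06, adjusted p 3.21e-14) and 1.97-fold lower than with DMSO (-0.98, adjusted p 3.37e-09). The groups did not overlap for either gene. Fold changes and log2 differences were taken after adding 1 to each value, so that changes of low genes are understated.

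Recovered reads over the listed genes were 17234093 to 20766998 per proliferating library, 17575263 to 21762412 with palbociclib and 14106799 to 16503624 with DMSO. Nothing in the labels says that the 3 libraries of a group came from separate cultures, so p-values measure only the spread between these samples. Scaling to the same total shifted the median log2 difference by 0.23 between DMSO and proliferating cells and by -0.23 between palbociclib and DMSO, and the same upper quartile moved it by 0.13 between palbociclib and proliferating cells. Values below are relative to the deposited scaling. All 10 fibroblast markers were expressed, with a summed level of 822420 to 854900 in proliferating, 408920 to 419590 in DMSO and 651680 to 683890 in palbociclib libraries. The 7 epithelial markers summed to 63.8 to 109.8, 85.6 to 90.0 and 56.0 to 75.3 in these groups, and the 6 immune markers to 9.98 to 17.1, 58.0 to 70.3 and 27.5 to 28.5. Among 6 endothelial markers the angiopoietin receptor gene TEK made up nearly all of the sum, at 1879, 1676 and 1941 in proliferating, 2403, 2359 and 2503 in DMSO and 4359, 3466 and 4045 in palbociclib libraries. The epithelial cadherin gene CDH1 was at 0 in all proliferating libraries, at 4.95, 2.37 and 3.47 with DMSO and at 18.8, 9.85 and 13.3 with palbociclib. The endothelial gene VWF was at 6.23, 2.22 and 6.67 in proliferating, 18.8, 11.8 and 26.6 in DMSO and 14.4, 29.6 and 19.5 in palbociclib libraries. Other members of these lists went the opposite way. The epithelial marker CLDN4 was at 70.6, 74.3 and 54.3 in proliferating and 29.9, 27.4 and 21.3 in palbociclib libraries. The endothelial marker TIE1 was at 36.3, 37.7 and 13.3 in proliferating and 0, 2.19 and 2.67 in palbociclib libraries. The epithelial splicing gene ESRP1 was at 0 in all proliferating and palbociclib libraries, and the endothelial cadherin gene CDH5 was at 0 in all palbociclib libraries. The part of these markers in the results was not tested. In RNA from whole cultures, fewer cells of a kind and less RNA per cell cannot be told apart.

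Against proliferating cells, 3962 genes were higher with palbociclib (35.2% of those tested) and 4336 were lower (38.6%), of which 1173 and 1292 differed at least 2-fold. Groups did not overlap for 70.9% of genes, so a call in this comparison is common and counts in the gene lists are read against these shares. Higher genes made up 47.7% of calls, and 57% at the same upper quartile. The median log2 difference over all tested genes was -0.03, against -0.05 for DMSO against proliferating cells. In the latter comparison 33% of genes were called higher and 39.3% lower. Palbociclib against DMSO gave 26% higher and 22.3% lower.

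**Figure D1:**
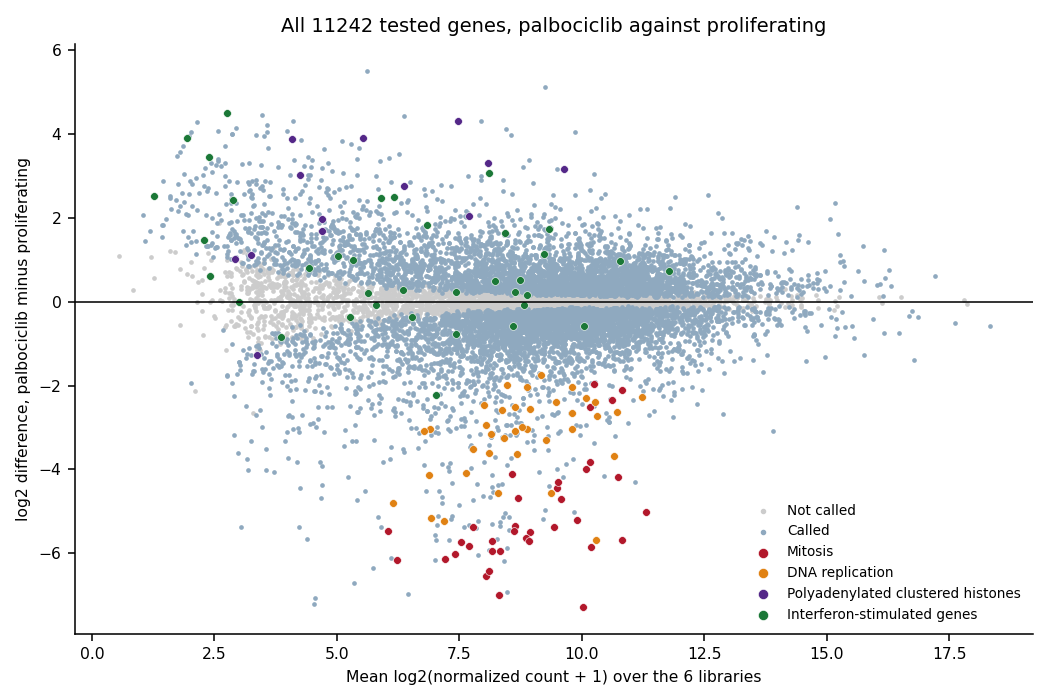
Each point is 1 of 11242 genes, with its mean log2(normalized count + 1) over the 3 proliferating and 3 palbociclib libraries on the x axis and the log2 difference, palbociclib minus proliferating, on the y axis. All 36 mitosis genes and all 37 DNA replication genes lie below 0, down to -7.28 for MKI67, while 12 of 13 histone genes lie above 0 and interferon-stimulated genes range from -2.23 to 4.51.

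Among genes averaging 100 or more in the higher group, the largest decreases were led by MKI67, which encodes the proliferation antigen Ki-67, and followed by E2F8, a repressor of the E2F family, TMSB15A, a thymosin, the mitotic kinesin gene KIF20A, the mitotic kinase gene NEK2, LMNB1, DEPDC1B and MYBL2. The largest increases were in NPAS1, a transcription factor of the basic helix-loop-helix family, CCND2, which encodes cyclin D2, PDE11A, a cyclic nucleotide phosphodiesterase, ANGPTL4, a secreted inhibitor of lipoprotein lipase, the histone gene H2AC6, OLR1, a receptor for oxidized lipoprotein, PPP1R3C, a glycogen-targeting phosphatase subunit, and ANKRD1. NPAS1 was at 2.08, 12.2 and 8.57 in proliferating, 109, 134 and 118 in DMSO and 295, 393 and 314 in palbociclib libraries (log2 difference from proliferating 5.51, SE 0.36, adjusted p 1.09e-09). OLR1 rose from 90.3, 79.9 and 79.0 in proliferating libraries to 646, 683 and 750.5 with DMSO and 1487, 1445 and 1453 with palbociclib, a difference of 4.12 (SE 0.08). Of these 8 increases, CCND2 and H2AC6 stood at the DMSO level, and the other 6 were above it.

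To describe what of the senescent state stayed, 2254 senescence genes were taken, those that differed at least 2-fold between DMSO and proliferating cells, 1244 higher and 1010 lower. A gene was classed as left where no difference between palbociclib and DMSO was called and the difference from proliferating cells was called. It was partly returned where palbociclib moved it towards, but not to, the proliferating level, and restored where it had moved back and the 95% interval of the remaining difference lay within 1.5-fold, whether or not that difference passed the test. Overshot genes had crossed to the other side of the proliferating level, and exceeded genes lay beyond the DMSO level. No interval was required for left genes, so left, or at the DMSO level, means not called and not shown to be equal. Over both directions 932 genes were left, and 1123 at an adjusted p under 0.01. The DMSO and proliferating libraries enter more than 1 of these contrasts and the genes were chosen for a large difference, so the class counts describe the genes and are no test.

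Of the genes higher with DMSO, 535 (43%) were left, 312 (25.1%) partly returned, 36 (2.89%) restored, 19 overshot and 186 (15%) exceeded, with 156 undecided. Of the genes lower with DMSO, 397 (39.3%) were left, 124 (12.3%) partly returned, 16 restored, 1 overshot and 460 (45.5%) exceeded, with 12 undecided. Over both directions 52 of 2254 were restored and 646 exceeded. Among the 168 undecided genes, 119 had been moved back by palbociclib and no longer differed from proliferating cells by the test, but with intervals wider than the margin. The class shares depend on the scaling. At the same total, 516 of 714 genes lower with DMSO (72.3%) were exceeded and 128 of 1709 higher (7.49%), and at quantile normalization 346 of 1038 lower (33.3%). At the same total 158 of the lower genes were left and 28 partly returned, and 79 of the higher genes were restored.

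**Figure D2:**
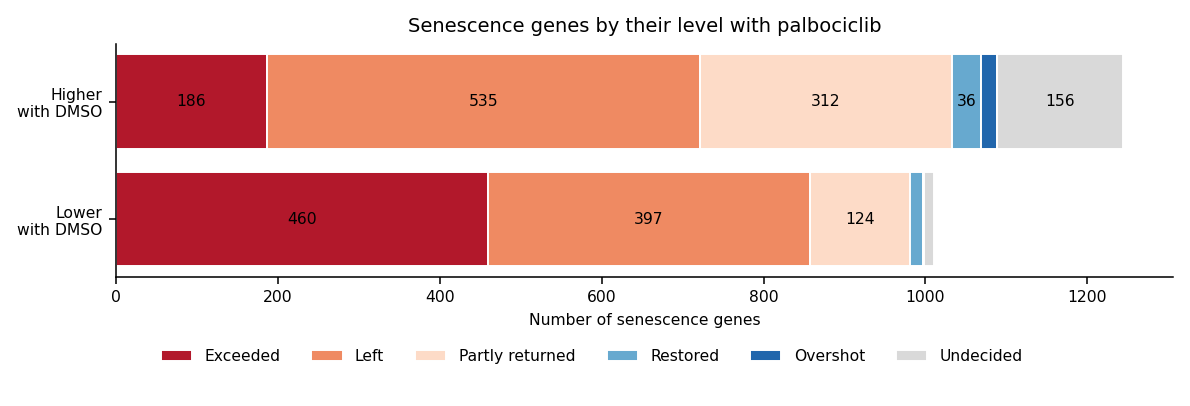
Bars count the senescence genes that were higher (1244) or lower (1010) with DMSO, split by where palbociclib left them. Exceeded genes make up 460 of the lower and 186 of the higher genes, and restored genes 16 and 36.

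The genes of the cyclin D, CDK4/6, RB and E2F axis fell into opposite directions. Of 20 tested, 15 were lower and 4 higher than in proliferating cells (median -0.56 against -0.62 for DMSO, the latter -0.40 at the same total). Of its 9 senescence genes 7 were exceeded and 2, CCND2 and CDK4, were left. E2F2, an activator E2F, was at 119, 119 and 124 in proliferating, 16.8, 14.2 and 20.8 in DMSO and 1.11, 3.28 and 1.78 in palbociclib libraries, where it held 3 reads or fewer, so that it was at least 39.0-fold lower than in proliferating and at least 5.59-fold lower than in DMSO cells. E2F8 was at least 91.3-fold lower than in proliferating cells by the same floor of 3 reads per library. CCNE2, which encodes cyclin E2, fell from 541 ± 54.0 (SD, n = 3) in proliferating to 158 ± 8.74 in DMSO and 36.7 ± 9.60 in palbociclib cells, and E2F1 from 996 ± 90.9 to 277 ± 14.4 and 200.2 ± 15.3. From here on, 3 means with SD (n = 3) stand in the order proliferating, DMSO, palbociclib, and a single value in parentheses is the log2 difference from proliferating cells unless DMSO is named. The pocket protein gene RBL1 followed (-3.25), and RB1 itself was lower than in proliferating cells (-0.84), with no difference called from DMSO (-0.08, adjusted p 0.447).

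The D-type cyclins, the partners of the inhibited kinases, were higher. CCND2 was at 71.6, 138 and 107 in proliferating libraries, 3722, 3649 and 3252 with DMSO and 3487, 3389 and 3863 with palbociclib. Its DMSO and palbociclib libraries overlapped (0.02, adjusted p 0.941, 95% interval -0.31 to 0.34), and both lay far above the proliferating ones (5.12, SE 0.15, adjusted p 9.70e-14). CCND1 rose from 17383 ± 1493 in proliferating to 58192 ± 461 in DMSO and 68224 ± 5964 in palbociclib cells, and CCND3 was 1.93-fold higher than in proliferating cells. The kinase genes parted: CDK4 was at 2625 ± 38.7 in proliferating, 1024 ± 30.5 in DMSO and 1017 ± 71.0 in palbociclib cells, whereas CDK6 was higher with palbociclib (8642 ± 1283) than with DMSO (5307 ± 149) or in proliferating cells (5634 ± 609). Of 7 CDK inhibitor genes, CDKN1A and CDKN2B were higher and 5 were lower. CDKN2C, which encodes the CDK4/6 inhibitor p18 and was at 962 ± 41.2 in proliferating cells, was at 94.5 ± 22.9 with DMSO and 27.1 ± 3.63 with palbociclib. CDKN3, which encodes a phosphatase of CDK2 and peaks in cycling cells, fell the most (-5.11), and CDKN1B, the gene of p27, was left at the DMSO level (-1.29). CDKN2A, the p16 locus, was at 177, 179.7 and 143 in proliferating, 164, 170.5 and 188 in DMSO and 121, 130.3 and 110.1 in palbociclib libraries. It was lower with palbociclib than in proliferating cells (-0.46, adjusted p 0.00207) and no palbociclib library reached the level of the others.

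The DNA replication genes were lower in 37 of 37 members (median -3.04, against -2.33 for DMSO), from -5.68 for RRM2 to -1.75 for POLA2. Of these, 33 lay below the DMSO level and 4 were left there, CHAF1A, MCM6, POLE and POLA2. RRM2, a subunit of ribonucleotide reductase, was at 8951, 8798 and 9290.1 in proliferating, 1520.4, 1615 and 1622 in DMSO and 183, 173 and 169.7 in palbociclib libraries. The 3 groups did not overlap (-5.68, SE 0.06, adjusted p 5.99e-19). MCM6, a subunit of the replicative helicase, showed the other pattern, with 2283, 2393 and 2504 in proliferating, 446, 456 and 444 in DMSO and 494, 504 and 465 in palbociclib libraries. Within the same helicase, MCM7 was at 447 with palbociclib against 940.0 with DMSO (-1.07, adjusted p 5.36e-10), whereas MCM6 did not differ from DMSO by the test (0.12, adjusted p 0.137). After RRM2 the largest decreases were in MCM10, an initiation factor (-5.22), CDC45, of the replicative helicase (-5.17), and the primase gene PRIM1 (-4.80). Genes of thymidine nucleotide synthesis were also lower than with DMSO, with TYMS at -2.56 and TK1 at -1.82.

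Mitosis genes were lower in 36 of 36 members, with a median of -5.47 against -3.19 for DMSO, and 35 exceeded the DMSO level. MKI67 (Entrez gene 4288) was at 13458, 10615 and 15114 in proliferating, 977, 1017 and 1038 in DMSO and 88.5, 71.2 and 87.9 in palbociclib libraries. It was 155-fold lower than in proliferating cells (-7.28, SE 0.11, adjusted p 4.58e-17) and 12.2-fold lower than with DMSO (-3.60, adjusted p 1.70e-12). KIF20A was at 3633, 3332 and 3722 in proliferating, 374, 354 and 392 in DMSO and 31.0, 28.5 and 22.2 in palbociclib libraries, and the transcription factor genes FOXM1 and MYBL2, which act on late cell cycle promoters, were lower by the same order (log2 differences -5.38 and -6.53), as was the kinesin gene KIF2C (-6.42). AURKA, a spindle kinase, was the only listed gene with no difference called from DMSO (-0.16, adjusted p 0.0676, limma). It was at 692, 732 and 646 with DMSO and 588, 637 and 631 with palbociclib. Each palbociclib library lay below every DMSO library. Summed over the 36 genes, the level was 130506 to 149699 in proliferating libraries, 17154 to 17752 with DMSO and 6011 to 6251 with palbociclib.

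**Figure D3:**
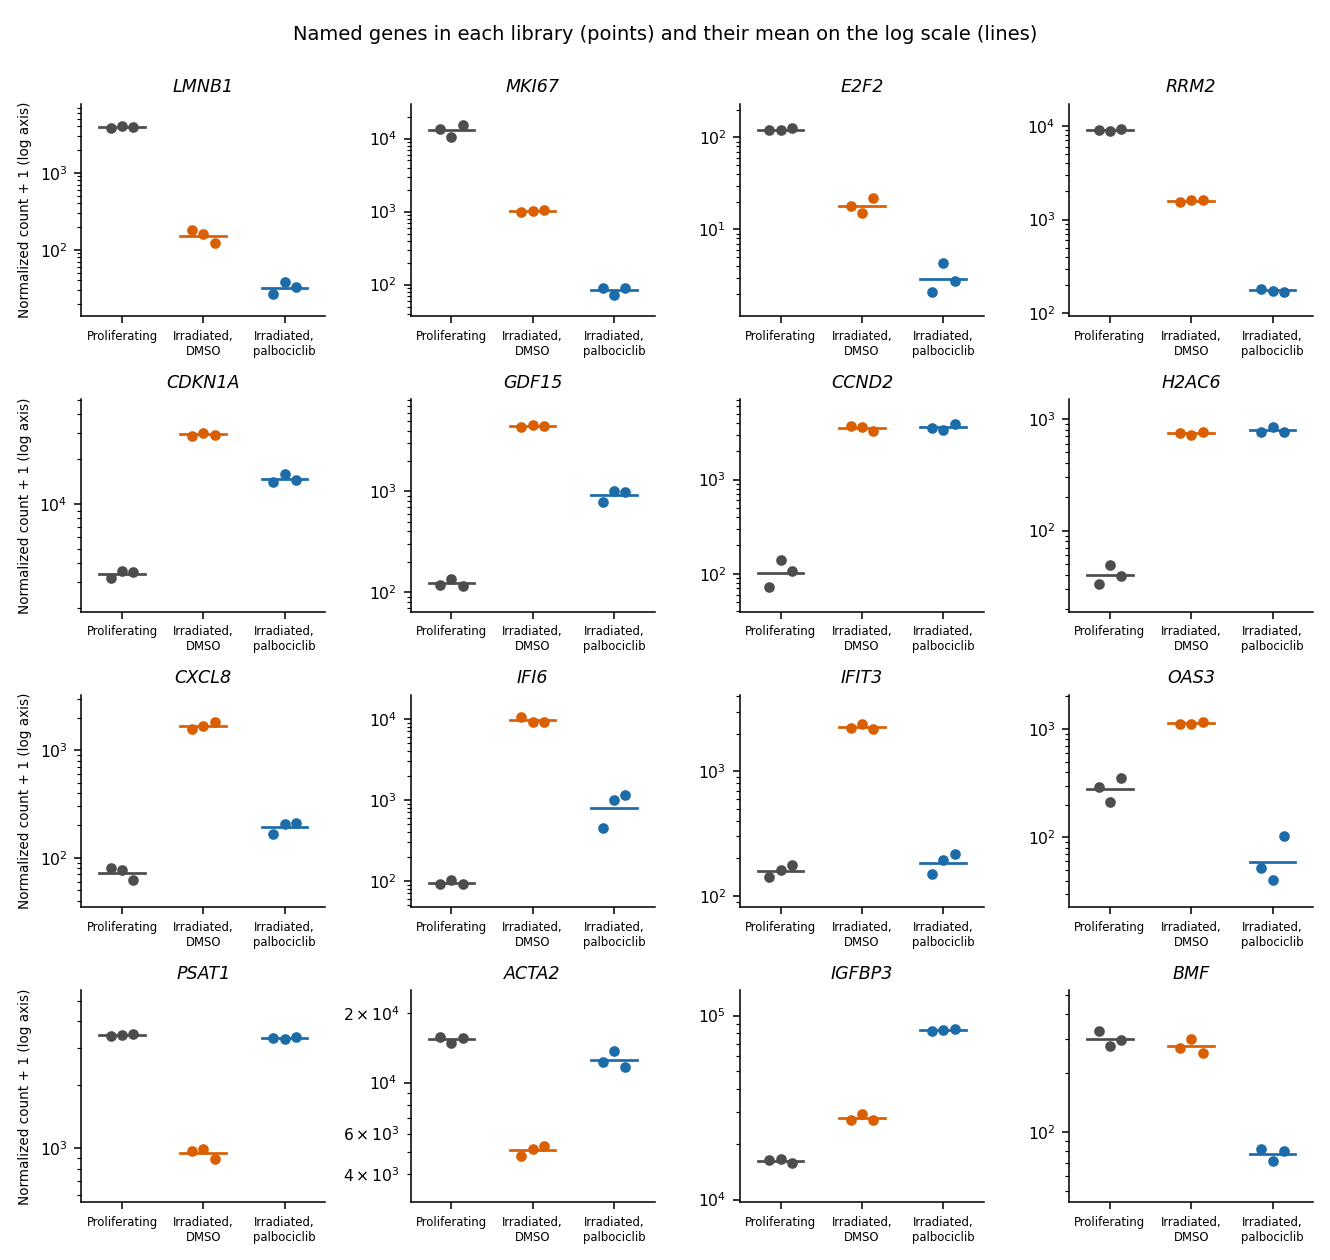
Normalized count + 1 on a log axis in each of the 9 proliferating, DMSO and palbociclib libraries (points) for 16 named genes, with the group mean on the log scale as a line. LMNB1, MKI67, E2F2 and RRM2 are lower with DMSO and lower again with palbociclib, CCND2 and H2AC6 stay at the DMSO level, IFIT3 and PSAT1 return to the proliferating level and OAS3 lies below it.

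Promoter sequences are shown for 3 of the exceeded genes because E2F and DREAM are known to act through short promoter motifs. The motifs searched on both strands were the cell cycle genes homology region (CHR, TTTGAA), the CCAAT box, and an E2F site (TTTCCCGC, TTTCGCGC, TTTGGCGC or TTTGCCGC). RefSeq windows on GRCh38.p14 from 250 bases before to 50 after the annotated start were matched for 9163 of the 11242 tested genes. The stretches below run 5′ to 3′ on the gene's strand from 160 bases before the start to 20 after it, with matches in capitals.
MKI67 (chr10:128126404-128126583, minus strand): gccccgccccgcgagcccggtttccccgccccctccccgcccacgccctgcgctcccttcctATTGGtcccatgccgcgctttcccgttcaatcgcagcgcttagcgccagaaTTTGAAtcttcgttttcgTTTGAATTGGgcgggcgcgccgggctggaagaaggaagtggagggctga
DEPDC1B (chr5:60700147-60700326, minus strand): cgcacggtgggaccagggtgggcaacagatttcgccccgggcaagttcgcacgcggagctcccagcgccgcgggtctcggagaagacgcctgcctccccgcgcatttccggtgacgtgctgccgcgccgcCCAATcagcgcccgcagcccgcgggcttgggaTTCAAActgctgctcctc
E2F2 (chr1:23531214-23531393, minus strand): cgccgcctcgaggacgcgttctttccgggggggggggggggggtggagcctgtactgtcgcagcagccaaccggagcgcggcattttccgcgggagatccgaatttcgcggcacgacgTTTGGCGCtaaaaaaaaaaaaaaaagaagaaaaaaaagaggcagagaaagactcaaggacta
MKI67 held 2 CHR matches, at -47 to -42 and -29 to -24 from the start, and 2 CCAAT boxes, at -98 to -94 and -24 to -20, the latter overlapping the second CHR match by 1 base. DEPDC1B, which encodes a protein of mitotic entry and was at 420.2, 410.3 and 418 in proliferating, 46.5, 28.4 and 30.1 in DMSO and 2.21, 4.38 and 2.66 in palbociclib libraries, had CHR at 3 to 8 and CCAAT at -30 to -26. E2F2 had 1 E2F match at -42 to -35. CHR was found in 19 of 30 mitosis promoters (63.3%) and in 1 of 33 DNA replication promoters (3.03%), against 9.87% of all tested promoters. The E2F site showed the reverse, in 17 of 33 replication (51.5%) and 2 of 30 mitosis promoters (6.67%), against 5.39%. Among the exceeded genes that were lower with DMSO, 26.2% held CHR, 15.3% the E2F site and 51.5% CCAAT (36.7% of all tested). In the same order, the shares were 14%, 8.72% and 39.9% of left genes that were lower with DMSO. For partly returned genes that were lower with DMSO they were 17.7%, 4.17% and 41.7%. These are matches of letters, not measured binding.

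DNA repair and checkpoint genes followed the replication genes in 20 of 22 members (median -3.02 against -2.18 for DMSO), 16 of them beyond the DMSO level. CLSPN, an adaptor of checkpoint signalling, was at 1996 ± 67.3 in proliferating, 297 ± 31.2 in DMSO and 56.5 ± 9.87 in palbociclib cells, and the recombination gene BRCA2 fell as well (-3.97). EXO1, an exonuclease (-4.65), BLM, a helicase (-4.51), and FANCD2, of the Fanconi anaemia pathway (-4.35), followed. The exceptions were the 2 apical damage kinases: ATR (-0.08, adjusted p 0.39) and ATM (0.20, adjusted p 0.117) did not pass the test, with 95% intervals of -0.26 to 0.10 and -0.04 to 0.44. PARP1, TOPBP1 and MSH6 were left at the DMSO level.

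Of 17 lamina and chromatin genes, 16 were lower (median -2.45 against -2.16 for DMSO), and 10 were exceeded. After LMNB1, the lowest were HMGB2, a chromatin protein (5220.1 ± 289, 556 ± 22.1 and 165 ± 43.4 in proliferating, DMSO and palbociclib cells), TMPO, a lamina-associated protein (-4.15), and EZH2, the H3K27 methyltransferase (-4.13). LMNA, which encodes the lamins A and C, was lower than in proliferating cells (-0.42), with no difference called from DMSO (0.11, adjusted p 0.171). HMGA2, a protein of senescence-associated heterochromatin, was the 1 member that was higher (0.56, adjusted p 5.67e-06).

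**Figure D4:**
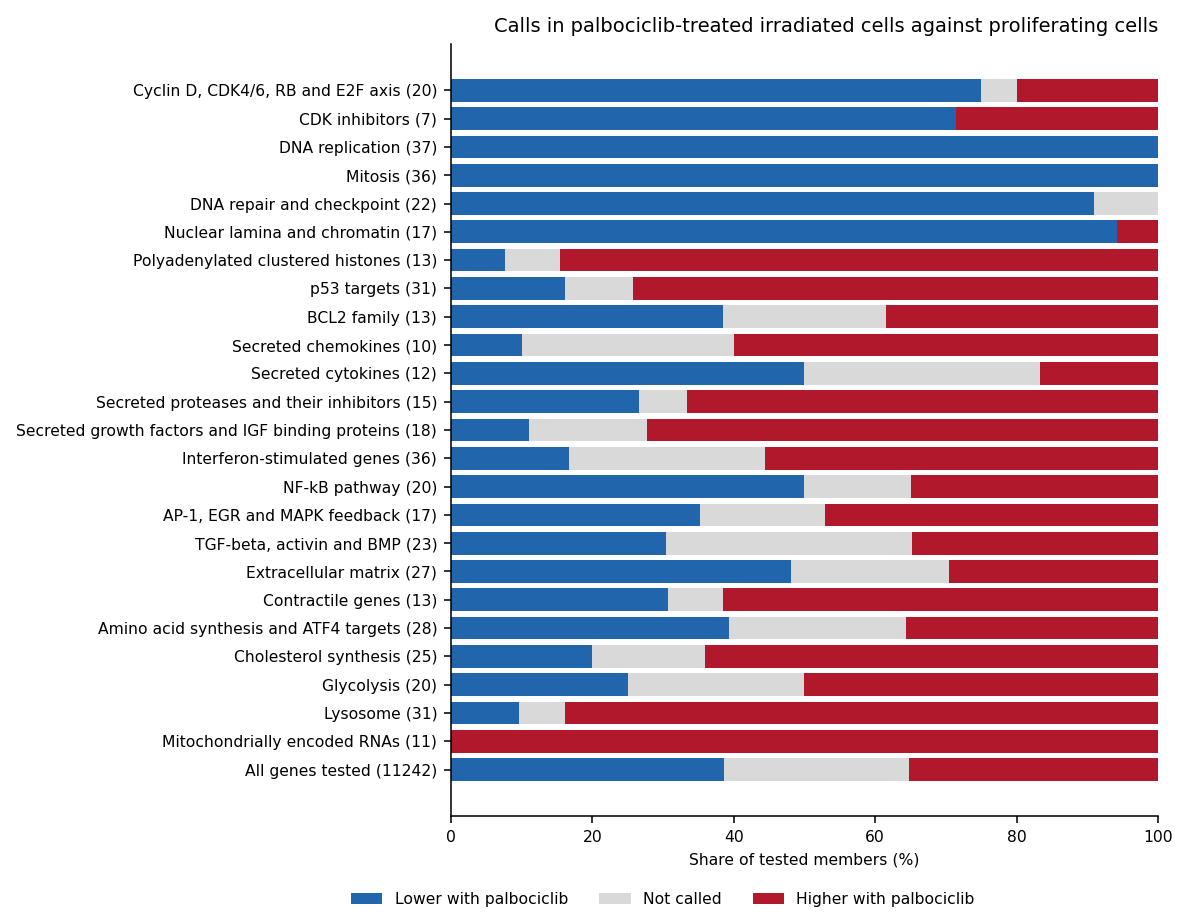
Bars give, for each gene list (number of tested members in brackets), the share called lower (blue), not called (grey) or called higher (red) in palbociclib against proliferating libraries. Mitosis and DNA replication are lower in every tested member and mitochondrially encoded RNAs higher in every one, while all tested genes split 38.6% lower and 35.2% higher.

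Polyadenylated transcripts of clustered histone genes, which in cycling cells are made mostly without a poly(A) tail, stayed high. Of 13 tested, 11 were higher than in proliferating cells (median 2.76 against 3.08 for DMSO), 8 of them partly returned and 3 left. H2AC6 was at 32.2, 47.7 and 38.1 in proliferating, 742, 715 and 761 in DMSO and 762, 843 and 761 in palbociclib libraries (4.31, SE 0.11, adjusted p 1.89e-14). H2BC12 (3.17) and H1-2 (2.04) were left as well, and H2BC21 was at 857 ± 39.2 against 1124 ± 44.0 with DMSO. H2BC4 (3.91) and H4C8 (3.88) were partly returned. H2BC9, at 15.1 ± 0.591 in proliferating and 6.19 ± 3.28 in palbociclib cells, was the 1 lower member. Near-identical copies of histone genes can share reads, so single members are uncertain. The other named genes left at the DMSO level were LYNX1, a membrane modulator of nicotinic receptors (3.77), and, among genes lower with DMSO, the hedgehog inhibitor HHIP (-4.04), the calcium channel subunit CACNG4 (-4.18) and the collagen gene COL5A3 (1094, 1163 and 1121 in proliferating, 126, 109 and 103 in DMSO and 147, 95.2 and 131 in palbociclib libraries).

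Most targets of p53 lay between the proliferating and the DMSO level. Of 31 tested, 23 were higher and 5 lower than in proliferating cells (median 0.74 against 1.27 for DMSO), while 26 were lower than with DMSO. Of 19 senescence genes among them, 16 were partly returned. GDF15, a secreted stress factor, was at 116, 134 and 114 in proliferating, 4369, 4527 and 4446 in DMSO and 778, 1015 and 985 in palbociclib libraries (2.91, SE 0.09, adjusted p 1.54e-13). MDM2, the p53 ubiquitin ligase, was at 1825, 1844 and 1833 in proliferating, 6613, 6189 and 5967 in DMSO and 2914, 2870.2 and 2790.1 in palbociclib libraries. No palbociclib library of either gene overlapped the other groups. The largest remaining difference was in SPATA18, a gene of mitochondrial quality control, at 86.9 ± 12.9, 1016 ± 61.0 and 692 ± 48.5 (2.99). BTG2 (-1.45) and the decoy receptor gene TNFRSF10C (-1.80) were also far below DMSO. Members differed: ZMAT3, a splicing regulator, went beyond DMSO (1207, 1081 and 1348 in proliferating, 4151, 4027 and 4256 in DMSO and 5899.5, 5469 and 5333 in palbociclib libraries), PLK3 stayed at its level, and AEN, PPM1D, BAX, XPC and PLK2 were lower than in proliferating cells, with log2 differences of -0.36 for AEN to -0.21 for PLK2. At the same upper quartile 1 of these 5, AEN, passed the test. DDB2, a damage recognition gene, was at 513 ± 38.3 in proliferating and 515 ± 18.9 in palbociclib cells (0.01, adjusted p 0.91).

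In the BCL2 family, 5 of 13 members were higher and 5 lower, with a median of -0.01 against 0.41 for DMSO; the first lay between -0.05 and 0.17 over other scalings, count tests and fits without a library. Both counts were near the shares of all tested genes (35.2% higher, 38.6% lower). The anti-apoptotic genes moved apart. BCL2 was at 189.9, 138 and 188 in proliferating, 23.8, 50.9 and 26.6 in DMSO and 16.6, 14.2 and 18.7 in palbociclib libraries (-3.30, adjusted p 1.23e-08), whereas BCL2L2 (0.93) and BCL2L1 (0.72), which encode BCL-W and BCL-XL, were higher. The BH3-only genes BMF and BCL2L11, which encode pro-apoptotic proteins, were below both other groups, BCL2L11 at 41.5, 47.7 and 40.9 in proliferating, 74.2, 88.8 and 78.6 in DMSO and 22.1, 18.6 and 19.5 in palbociclib libraries.

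Secreted inflammatory genes were mostly higher with DMSO than in proliferating cells and lower with palbociclib than with DMSO. Of 10 chemokine genes tested, CXCL8, CXCL10, CXCL11, CCL2, CXCL2 and CCL20 were called higher with palbociclib than in proliferating cells and CXCL12 was lower. CXCL1, CXCL2, CXCL3 and CCL20 averaged under 10 in both of these groups and entered the test only through the DMSO and ruxolitinib libraries, so they had to be lower than with DMSO and no count or median over the list is read. CXCL11, at a mean of 11.1 with palbociclib, was under 10 over proliferating and palbociclib libraries together. It also passed the filter only through the other libraries, so its difference from DMSO is not read. CXCL8, which encodes the neutrophil attractant IL-8, was at 79.9, 75.4 and 60.9 in proliferating, 1564, 1674 and 1835 in DMSO and 166, 205 and 208 in palbociclib libraries. It was 8.75-fold lower than with DMSO (-3.13, adjusted p 1.21e-11) and 2.66-fold higher than in proliferating cells (1.41, adjusted p 1.19e-08). CXCL10, an interferon-induced chemokine, was at 6.94 ± 1.91, 459 ± 52.4 and 52.7 ± 5.09. CXCL11 held 3 reads or fewer in proliferating libraries and was at least 3.57-fold higher with palbociclib and at least 51.2-fold higher with DMSO. CXCL1, CXCL3 and CXCL5 did not pass the test against proliferating cells, at 6.77 ± 0.292, 4.27 ± 2.43 and 9.41 ± 3.43 with palbociclib and 3.66 ± 3.26, 2.07 ± 0.157 and 11.9 ± 2.48 in proliferating cells. CCL20 was at 27.7, 39.1 and 32.4 with DMSO and 3.32, 3.28 and 2.66 with palbociclib, and averaged 0.346 in proliferating cells. CXCL12, a homeostatic chemokine, was lower than in both other groups (-1.27).

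Of 12 cytokine genes, 10 were lower than with DMSO, and against proliferating cells 6 were lower, 2 higher and 4 not called (median -0.32 against 1.36 for DMSO). Without library A125 the first median was -0.67, with 7 lower. CSF2 and IL1A averaged under 10 in proliferating and palbociclib libraries and entered the test only through the other groups. They had to be lower than with DMSO, and the counts and medians of the list include them. IL6 was at 156, 175 and 125 in proliferating, 557, 623 and 661 in DMSO and 199, 227 and 262 in palbociclib libraries, which left it 1.51-fold higher (0.60, adjusted p 5.61e-04). LIF, of the same cytokine family, was partly returned, at 572 ± 36.2, 2125 ± 197 and 1631 ± 129. IL1B and IL24 overshot. IL24 was at 35.3, 24.4 and 15.2 in proliferating libraries and averaged 8.30 ± 3.25 with palbociclib (-1.46, adjusted p 3.30e-04); IL1B groups overlapped (-1.11, adjusted p 0.0215). IL11 was lower in both senescent groups and lowest with palbociclib (2659 ± 188, 1868 ± 44.8 and 1316 ± 134). IL1A, which drives the secretory response, was at 5.10 ± 3.55, 62.6 ± 4.75 and 3.45 ± 0.865 and was not called against proliferating cells.

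Protease and inhibitor genes split. Of 15, 10 were higher and 4 lower than in proliferating cells (median 1.12 against 1.15 for DMSO), and against DMSO 7 were higher and 6 lower. These counts and medians include MMP12, which averaged 4.12 with palbociclib and held 3 reads or fewer in proliferating libraries. It entered the test only through the DMSO and ruxolitinib libraries, so it had to be lower than with DMSO. The collagenase gene MMP1 overshot, at 3036, 2946 and 3048 in proliferating, 6382, 6615 and 6669.7 in DMSO and 1231, 1450.4 and 1146 in palbociclib libraries (-1.24, SE 0.07, adjusted p 1.19e-10). MMP3, a stromelysin, was partly returned (73.7 ± 1.36, 551 ± 27.2 and 199 ± 33.4), as was SERPINB2 (41.3 ± 11.6, 995 ± 47.4 and 181 ± 18.3). The inhibitor genes TIMP3, SERPINE2 and TIMP1 lay beyond DMSO, TIMP3 at 9784 ± 483, 27376 ± 844 and 47057 ± 654, SERPINE2 at 2.49 and TIMP1 at 1.55 against proliferating cells.

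Among 18 growth factor and IGF binding protein genes, 13 were higher and 2 lower than in proliferating cells (median 0.95 against 0.97 for DMSO, the latter 1.195 at the same total). IGFBP3, a carrier of insulin-like growth factors, was at 16517, 16630.0 and 15745 in proliferating, 27146, 29143 and 26933 in DMSO and 82528, 83613 and 84154 in palbociclib libraries. The 3 groups were apart, and palbociclib was 5.12-fold above proliferating cells (2.36, SE 0.05, adjusted p 1.15e-15) and 3.01-fold above DMSO. IGFBP7 and IGFBP4 were also above DMSO, by 0.70 and 0.43. ANGPTL4 was at 60.2, 46.6 and 55.2 in proliferating, 832, 843 and 778 in DMSO and 932, 1234 and 1133 in palbociclib libraries. The epidermal growth factor family ligands EREG and NRG1 were partly returned, HBEGF was not different from DMSO by the test (0.12, adjusted p 0.23), and AREG was at 60.2 ± 23.4, 279 ± 10.6 and 46.3 ± 6.54. PAPPA2, outside the list and a protease of IGF binding proteins, exceeded DMSO (6.23, 9.98 and 8.57 in proliferating, 31.7, 29.6 and 39.3 in DMSO and 136, 104 and 152 in palbociclib libraries). STC1, a secreted glycoprotein, was restored, at 3659, 2958 and 3679 in proliferating, 8221, 8392 and 8641 in DMSO and 3521, 3157 and 3304 in palbociclib libraries (difference from proliferating -0.04, 95% interval -0.19 to 0.12).

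**Figure D5:**
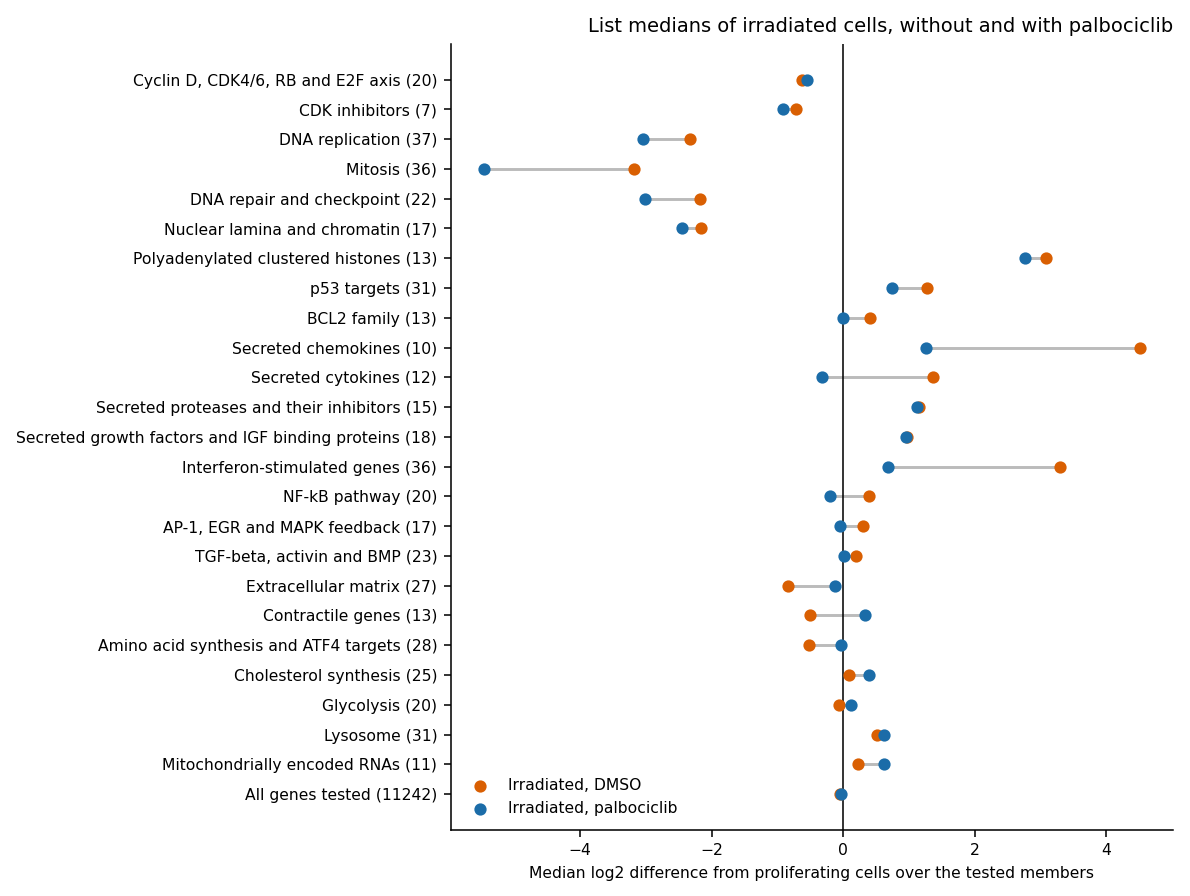
Points give the median log2 difference from proliferating cells over the tested members of each list, for DMSO (orange) and palbociclib (blue). Palbociclib lies farther from 0 than DMSO for mitosis (-5.47 against -3.19) and nearer to 0 for p53 targets (0.74 against 1.27). Chemokine, cytokine, protease and interferon lists hold members that entered the test only through the DMSO and ruxolitinib libraries.

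Interferon-stimulated genes, which encode antiviral effectors switched on by interferon signalling, were lower with palbociclib than with DMSO in 36 of 36 members (median -3.22). Against proliferating cells 20 were still higher, 6 lower and 10 not called (median 0.68 against 3.30 for DMSO). OASL, HERC5, RSAD2 and CMPK2 averaged under 10 in both proliferating and palbociclib libraries and entered the test only through the other groups, so they had to be lower than with DMSO. Among the other members named here, OAS1 and BST2 were under 10 over proliferating and palbociclib libraries together. They also passed the filter only through the other groups, so their differences from DMSO are not read. The counts, medians and class counts of the list were taken without leaving these genes out. By class, 20 were partly returned, 3 restored (EPSTI1, SAMD9 and IFIT3), 4 overshot (OAS3, ISG20, DDX60 and IFIH1) and 6 undecided. Summed over the list, the level was 9761 to 10096 in proliferating libraries, 58833 to 60054 with DMSO and 14361 to 16733 with palbociclib, the lowest of the last being library A119.

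IFI6 (Entrez gene 2537, chromosome 1, 27666064 to 27672192), an interferon-induced mitochondrial protein, was at 91.3, 102 and 89.5 in proliferating, 10410.1, 9241 and 9204 in DMSO and 444, 993 and 1156 in palbociclib libraries. All palbociclib libraries lay between the other groups, with A119 the lowest (3.07, SE 0.24, adjusted p 8.54e-09). OAS2, a synthetase that activates RNase L, held 3 reads or fewer in proliferating libraries, was at 27.7, 35.0 and 32.0 with palbociclib and at 589, 643 and 657 with DMSO, and so was at least 10.2-fold and at least 203-fold higher. BST2, which encodes tetherin, was at 8.85, 17.5 and 27.5 with palbociclib and 189, 206 and 191 with DMSO, and averaged 0.663 in proliferating cells. OAS1 was at 12.2, 8.76 and 24.9 with palbociclib and 0 in all proliferating libraries (at least 4.93-fold higher). RSAD2, an antiviral enzyme gene also at 0 in proliferating libraries, was at 0, 13.1 and 12.4, so that the groups overlapped through A119, and its call ended when only the 2 groups compared were fitted (adjusted p 0.0539).

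Outside the list, GDNF, a neurotrophic factor gene, was restored (67.2 ± 7.38, 342 ± 10.7 and 77.1 ± 2.62). The restored member IFIT3 was at 140.1, 161 and 175 in proliferating, 2208, 2366 and 2161 in DMSO and 149, 195 and 216 in palbociclib libraries, and the proliferating and palbociclib libraries overlapped (0.22, 95% interval -0.03 to 0.47). The remaining difference passed the test without A119 (0.37, adjusted p 0.00266, limma) and at the same upper quartile (0.35, adjusted p 0.014). EPSTI1 was at 58.1, 57.7 and 54.3 in proliferating and 39.8, 60.2 and 64.0 in palbociclib libraries (-0.08, 95% interval -0.42 to 0.27), a difference that was 0.05 at the same upper quartile and 0.13 without A119. OAS3 lay below every proliferating library, at 293, 213 and 352 against 50.9, 39.4 and 101 (-2.23, SE 0.27, adjusted p 2.01e-06), with DMSO at 1101, 1122 and 1162. DDX60 showed the same order (243, 208 and 226 in proliferating, 115, 119 and 165 with palbociclib). The call of IFIH1, the RNA sensor MDA5, was at the limit (-0.36, adjusted p 0.0449) and ended in several alternatives, among them both count tests, the same upper quartile and 8 of the 9 fits without a library (adjusted p 0.02 to 0.176 over the alternatives). The signalling gene STAT2 was at 1259 ± 131, 3485 ± 200.4 and 2462 ± 236, and stayed higher than in proliferating cells (0.97).

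The promoters of IFIT3 and IFI6 are shown for the interferon-stimulated response element (ISRE, searched on both strands), through which interferon is known to act, with matches in capitals and the same stretch as above.
IFIT3 (chr10:89327837-89328016, plus strand): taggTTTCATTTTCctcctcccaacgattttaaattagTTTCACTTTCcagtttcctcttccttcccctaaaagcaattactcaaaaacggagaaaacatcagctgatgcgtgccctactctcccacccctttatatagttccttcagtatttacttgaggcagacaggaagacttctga
IFI6 (chr1:27672173-27672352, minus strand): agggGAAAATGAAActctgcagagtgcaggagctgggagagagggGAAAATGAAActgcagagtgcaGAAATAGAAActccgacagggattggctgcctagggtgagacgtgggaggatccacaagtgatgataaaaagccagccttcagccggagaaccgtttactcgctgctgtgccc
IFIT3 had 2 matches, at -156 to -147 and -122 to -113, and IFI6 had 3, at -156 to -147, -115 to -106 and -93 to -84. An ISRE match was present in 18 of 29 list promoters (62.1%), in 6 of 29 promoters of genes that were higher with DMSO and restored (20.7%) and in 19 of 236 of those partly returned (8.05%), against 2.76% of all tested promoters. Of the genes higher with DMSO that were left at its level, 9 of 405 held one (2.22%). Among restored genes that were lower with DMSO, 2 of 14 held one (14.3%). The sets overlap, since list members are counted in their classes too.

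Genes of the NF-kB pathway were mixed, with 7 of 20 higher and 10 lower than in proliferating cells (median -0.20 against 0.39 for DMSO; the first was -0.08 at the same upper quartile and -0.01 at quantile normalization), and 14 lower than with DMSO. TNFAIP3, which encodes the feedback inhibitor A20, overshot at 249, 206 and 249 in proliferating, 647, 550.5 and 679 in DMSO and 121, 120.4 and 127 in palbociclib libraries (-0.93, adjusted p 9.88e-07). NFKBIA, another inhibitor, was -0.74 and NFKB1 -1.13 against proliferating cells. BCL3, an atypical inhibitor of the family, exceeded the DMSO level (-1.59). BIRC3 and PTGS2, the gene of cyclooxygenase-2, were restored, PTGS2 at 169 ± 29.4, 479.5 ± 50.8 and 161 ± 28.9. The adhesion genes did not follow: ICAM1 was left (631 ± 51.3, 2440.1 ± 207 and 2208 ± 68.8) and VCAM1 exceeded (139.8 ± 10.7, 352 ± 76.4 and 525 ± 58.9). Among 17 AP-1, EGR and MAPK feedback genes 8 were higher and 6 lower, with a median of -0.05 against 0.29 for DMSO; the first lay between -0.13 and 0.08 over other scalings, count tests and fits without a library. FOSL1, which encodes the AP-1 subunit FRA-1, fell beyond DMSO (6315 ± 446, 2738 ± 169.6 and 2099 ± 55.4), as did the ETS factor gene ETV4 (-1.69). FOSB (1.20) and the phosphatase genes DUSP4 (1.16) and DUSP6 (1.16) were partly returned and stayed higher.

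Most matrix and contractile genes were lower with DMSO than in proliferating cells, and most were higher with palbociclib than with DMSO. Of 27 matrix genes, 22 were lower with DMSO than in proliferating cells, 19 were higher with palbociclib than with DMSO, and 13 stayed lower and 8 were higher than in proliferating cells (median -0.13 against -0.83 for DMSO; the first was 0.002 at the same upper quartile). COL1A1, of type I collagen, was at 397572, 414584 and 391817 in proliferating, 166302, 167463 and 163418 in DMSO and 260817, 270148 and 274606 in palbociclib libraries (-0.58, adjusted p 1.86e-07), and COL1A2 was not called against proliferating cells (0.05, 95% interval -0.07 to 0.16). COL15A1, of the basement membrane zone, was partly returned (5113 ± 239.9, 669 ± 28.4 and 1810.1 ± 167), as was the galactosyltransferase gene B3GALT2 (-1.16). ELN, the elastin gene, was partly returned (1267 ± 46.3, 111 ± 7.02 and 243 ± 6.39). The crosslinking enzyme gene LOX went the other way, from 22673, 19908 and 23501 in proliferating and 30429, 31407 and 31887 in DMSO to 71724, 63164 and 66715 in palbociclib libraries, and DCN, which encodes the proteoglycan decorin, was 2.26-fold higher than in proliferating cells. Tenascin C and periostin genes fell: TNC was at 44713 ± 7467, 9692 ± 43.1 and 5314 ± 855, and POSTN at 1240.0, 1062 and 1335 in proliferating, 727, 714 and 724 in DMSO and 159, 111 and 135 in palbociclib libraries (-3.17, adjusted p 4.61e-13). MFAP5, a microfibril protein gene, was at least 15.5-fold higher than in proliferating libraries that held 3 reads or fewer.

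Contractile genes were higher with palbociclib than with DMSO in 12 of 13 members, and against proliferating cells 8 were higher, 4 lower and 1 not called (median 0.33, or 0.17 at quantile normalization, against -0.51 for DMSO, or -0.28 at the same total). The neurexin gene NRXN3, outside the list, was restored from 116 ± 13.6 to 382 ± 12.8 against 467 ± 25.6 in proliferating cells. ACTA2, which encodes smooth muscle actin, was restored by the margin, at 15834, 14911 and 15565 in proliferating, 4789, 5132 and 5306 in DMSO and 12330.2, 13742 and 11634 in palbociclib libraries. The palbociclib libraries were still below the proliferating ones (-0.30, adjusted p 2.96e-04, 95% interval -0.43 to -0.17). CNN1, the calponin gene, and ACTG2 were restored too. CALD1, the caldesmon gene, was at 31106, 27148 and 30735 in proliferating, 30339.5, 30659 and 30349 in DMSO and 62609, 55765 and 55334 in palbociclib libraries, above both other groups, as were TPM2 (0.86) and MYL9 (0.63). DES, the desmin gene, was the 1 member that fell below DMSO (93.9 ± 11.8, 76.6 ± 15.4 and 35.7 ± 8.86). In the TGF-beta, activin and BMP list, 8 of 23 genes were higher and 7 lower (median 0.01 against 0.19 for DMSO; the first lay between -0.02 and 0.14 over other scalings, count tests and fits without a library). Over all tested genes the shares were 35.2% higher and 38.6% lower, so neither count of this list stands above them. TGFB2 (1.48) and the receptor gene TGFBR2 (1.42) were higher, ID4, a BMP target, was lower (-1.54), TGFB1 was -0.48, and BMP2 overshot (291 ± 18.2, 919.9 ± 20.7 and 150.0 ± 21.8).

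Of 28 genes of amino acid synthesis and the ATF4 response, 18 were lower with DMSO than in proliferating cells and 19 were higher with palbociclib than with DMSO. Against proliferating cells 10 were higher, 11 lower and 7 not called, near the shares of all tested genes (35.2% higher, 38.6% lower). The median was -0.04 (0.09 at the same upper quartile) against -0.52 for DMSO (-0.29 at the same total). PSAT1, an enzyme of serine synthesis (Entrez gene 29968, chromosome 9, 78297125 to 78330093), was restored, at 3415, 3436 and 3502 in proliferating, 969, 987 and 887 in DMSO and 3337, 3316 and 3388 in palbociclib libraries. Its palbociclib libraries lay just below the proliferating ones (-0.04, 95% interval -0.16 to 0.07), a difference that was 0.08 at the same upper quartile. The amino acid transporter gene SLC7A5 was restored (5993 ± 267, 2509.8 ± 60.1 and 5852 ± 155), while PHGDH, the first enzyme of serine synthesis, was only partly returned (3510.3 ± 294, 621 ± 42.1 and 1162 ± 132). ATF3 and DDIT3, stress-induced members that were higher with DMSO than in proliferating cells, moved the opposite way, ATF3 at 95.4 ± 7.27, 1152 ± 15.8 and 198 ± 3.73. NUPR1, a stress-induced chromatin protein, differed from both other groups (759 ± 130.4, 646 ± 19.3 and 1610.5 ± 262). ADM2 overshot, at 70.6, 78.7 and 72.4 in proliferating, 48.5, 22.5 and 35.8 in DMSO and 127, 106 and 155 in palbociclib libraries.

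Of 25 cholesterol synthesis genes 16 were higher and 5 lower than in proliferating cells (median 0.40 against 0.09 for DMSO, the latter 0.32 at the same total). MSMO1, a sterol oxidase gene, was at 693, 749 and 664 in proliferating, 1338, 1252 and 1310.1 in DMSO and 2079, 2167 and 2103 in palbociclib libraries, and DHCR7, of the last step of the pathway, was 2.34-fold above proliferating cells. TM7SF2 (2.01) and INSIG1, a feedback regulator (-1.42), were left at the DMSO level, 1 high and 1 low. Of 20 glycolysis genes 10 were higher and 5 lower, or 14 and 4 at the same upper quartile. Their median was 0.12, or 0.25 at the same upper quartile, against -0.06 for DMSO, which was 0.16 at the same total, 0.09 at the same upper quartile and 0.13 at quantile normalization. The list was led by PFKP, a phosphofructokinase gene (-1.23), LDHB, of lactate dehydrogenase (-0.85), and ENO1, an enolase gene (-0.82), which were lower. The lactate transporter gene SLC16A3 was higher (0.60). Lysosomal genes were higher in 26 of 31 members (median 0.63 against 0.51 for DMSO), an order that turned at the same total (0.63 against 0.74) and at quantile normalization (0.67 against 0.69). Among them were SGSH (1.70) and ASAH1 (1.34), which exceeded DMSO, FUCA1 (2.69) and IDS (1.26), which were left, and GLB1, the gene of senescence-associated beta-galactosidase (1410.5 ± 64.9, 1668 ± 30.7 and 1849 ± 90.4). All 11 mitochondrially encoded RNAs were higher (median 0.62 against 0.22 for DMSO, or 0.48 against 0.47 at quantile normalization). They made up 2.78% to 3.00% of counts in proliferating, 2.65% to 2.86% in DMSO and 3.30% to 3.45% in palbociclib libraries. ND6 had the largest difference (1.49), but its reads cannot be told from those of the opposite strand where counting ignored strand, and ND5 followed (0.95). COX1, a subunit of cytochrome oxidase, was at 126268, 113696 and 124801 in proliferating, 105030.0, 112067 and 117557 in DMSO and 187445, 191001 and 181742 in palbociclib libraries.

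Some genes differed with palbociclib from both other groups while DMSO and proliferating cells did not differ by the test. Among the 11242 tested there were 585 such genes higher, 21 of them at least 2-fold, and 478 lower, 92 at least 2-fold. These counts were not repeated at other scalings, which shifted both contrasts with DMSO, so they hold for the deposited scaling only. INHBB, an activin subunit gene, was at 74.7, 85.4 and 48.6 in proliferating, 65.3, 67.5 and 89.0 in DMSO and 273, 286 and 271 in palbociclib libraries (2.01, SE 0.19, adjusted p 7.78e-08). MYCT1 followed (40.9 ± 2.46, 32.0 ± 3.32 and 122 ± 2.97); BCYRN1, a repeat-derived RNA whose reads can come from other copies, is uncertain (1.39). On the lower side, BMF was at 326, 275 and 295 in proliferating, 269, 298 and 253 in DMSO and 80.8, 70.1 and 79.1 in palbociclib libraries (-1.95, SE 0.10, adjusted p 5.47e-11), and CASP1, the inflammasome caspase gene, at 253, 299 and 245 in proliferating, 245, 279 and 266 in DMSO and 74.1, 82.1 and 74.6 in palbociclib libraries. SIPA1L2 was lower as well (-1.66). In each of INHBB, BMF and CASP1 no palbociclib library overlapped the other groups.

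Against the ruxolitinib group, which shared radiation, dose and schedule, 22.8% of genes were higher with palbociclib and 17.6% lower. Of the lists, 34 of 36 mitosis genes, 28 of 37 replication genes and 27 of 31 p53 targets were lower with palbociclib. Contractile genes were higher in 12 of 13 and matrix genes in 17 of 27. Interferon-stimulated genes went both ways, 17 of 36 higher and 7 lower with palbociclib.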

How the data were processed

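RNA of IMR90 cells was sequenced in 12 libraries, and 1 table of the whole series was deposited by the authors. Its values are a signal per gene, normalized counts made by the authors by dividing read counts by size factors. Per the submitters' processing notes, the tools were Trimmomatic 0.38.1, HISAT2 2.2.1, featureCounts 2.0.3, FastQC 0.74, MultiQC and DESeq2 2.11.40.8, with build hg38 (GRCh38). Rows are listed in order of Entrez number up to 140467; 15230 of 15260 RefSeq protein-coding genes up to it are listed, and the 4796 above it (23.9% of 20056) were not analysed here. All 159231 values tested (100%) were whole multiples of 1 read at a tolerance of 0.01.

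Genes with a mean of at least 10 were fitted over all 4 groups as log2(value + 1) with limma 3.58.1 (R 4.3.3, variance trend), and called at a Benjamini-Hochberg adjusted p under 0.05 over all 11242. Intervals are 95% and not adjusted. Alternatives were other pseudocounts, filters, scalings, thresholds, margins and samples, each library left out in turn, and edgeR 4.0.16 (4177 genes higher, 4099 lower) and DESeq2 1.42.0 (4135 and 4037) on recovered reads. Libraries are given in the order A125, A126, A127 for proliferating, A116, A117, A118 for DMSO and A119, A120, A121 for palbociclib cells.

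Gene lists, classes and the rule for named genes were chosen with earlier results of these data known. The rule took the markers, the 8 largest differences in each direction, the 3 largest of each class, the 3 largest changed by palbociclib alone, and the 4 largest in each list, with a mean of at least 100 except in the lists. Other list members were named after their values were seen. Results for a few list members are not reported here.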

Additional observations from a re-analysis of the deposited data

How the results depend on the processing

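Over 199 values of the 9 counts and classes under the alternatives, 194 kept within 1.5 times the reported count, with genes higher and lower with DMSO counted together in each class. Taken apart, 158 lower genes were left and 28 partly returned at the same total, against 397 and 124 reported, and 79 higher genes were restored against 36. The exceptions were 12 overshot genes with a mean of at least 50, 12 overshot at an adjusted p under 0.01, 87 restored at the same total, and 12 restored with the narrower margin and 214 with a margin of 2-fold. With each library left out in turn, 3742 to 3933 genes were higher and 4110 to 4313 lower, 1156 to 1225 and 1268 to 1323 at least 2-fold. Left genes then numbered 886 to 1069, partly returned 368 to 454, restored 46 to 55, overshot 16 to 22 and exceeded 565 to 699. Of 921 values of 44 named genes (limma, edgeR or DESeq2), 889 kept their direction and call, 19 lost and 9 gained the call, and 4 changed sign. The last were EPSTI1 at 0.046 with the same upper quartile, 0.00088 with DESeq2 and from -0.206 to 0.129 with a library left out (0.129 without A119), and PSAT1 at 0.084 with the same upper quartile; neither passed the test in the reported fit. The cause was not tested. No paired analysis was possible because the columns carry library numbers and no replicate number that the groups share. Depth limits genes at a few reads, such as E2F2 with palbociclib, to lower bounds of the fold.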
